A study of Mus musculus with 16 samples.

Results

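The immunoglobulin heavy chain (Igh) locus was examined in the transcriptomes of 2 sorted bone marrow progenitor populations of the mouse. Its members were the genes whose symbol names a heavy chain V, D, J or constant gene, whose annotated biotype is an immunoglobulin gene, and whose counts summed to at least 10 over the 16 libraries. Of 47937 genes in the count tables, 79 met this rule: 8 constant genes, 4 J genes, 2 D genes and 65 V genes. Before the count minimum, 144 genes matched (8 constant, 4 J, 17 D and 115 V), and 19 of 70 annotated V pseudogenes that reached 10 counts were kept beside them for comparison. The libraries came from MPP3 cells (lineage-, Sca1+, cKit+, CD150-, CD48+), which are myeloid-biased multipotent progenitors, and MPP4 cells (the same gate with Flt3+), which are lymphoid-biased. Each population was sorted from 4 mice labelled WT and 4 labelled KO, all C57BL/6, giving 4 groups of 4 libraries from 8 mice.

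The sample labels give the WT genotype as Ebf1fl/fl Tie2Cre+/+ and the KO genotype as Ebf1fl/fl Tie2Cre +/cre, so that by these labels the floxed alleles were common to both arms and the KO arm added Cre. The description of the whole series instead gives the WT arm a wild-type Ebf1 allele with Tie2Cre, and the labels do not settle which holds. Cre was driven by the Tie2 promoter, which is active in endothelium and in haematopoietic stem cells, so the deletion was not limited to the sorted cells. WT mice were 11 to 12 weeks old and KO mice 9 to 11 weeks, with both sexes in each arm. EBF1 is required for B cell development. Ebf1 itself was counted 23, 6, 84 and 6 times in KO and 5, 21, 91 and 82 times in WT MPP3 libraries, overlapping, with a log2 fold change of KO over WT of -0.73 ± 0.69 (FDR = 0.772, edgeR). In MPP4 it was counted 488 to 928 times in KO and 98 to 263 times in WT, a log2 fold change of 2.22 ± 0.64 (FDR = 0.188), so neither difference passed the test. A count over the whole gene cannot separate intact from recombined transcripts, so WT and KO below are the labels' names and every KO direction rests on them.

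In a B lineage cell, the RAG recombinase joins a D to a J segment and then a V segment to the DJ join, and the joined exon is spliced to a constant gene: Ighm for IgM, Ighd for IgD, and Ighg, Igha or Ighe after class switching. Before that, unrearranged V, D, J and constant genes are themselves transcribed in lymphoid progenitors, which is called germline transcription and involves many V genes, pseudogenes included. A plasma cell by contrast secretes a single antibody, transcribing its own joined V gene with a light chain and the joining chain Jchain at very high levels. Gene-level counts do not show whether a transcript was joined or germline, so the 2 patterns are described here by which genes were counted, in how many libraries, and with what light chain.

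The segments on which the results turn are printed first. The locus lies on the minus strand of chromosome 12 (GRCm38, mm10), with Ighm (ENSMUSG00000076617) at chr12:113418558-113422730 and V genes at higher coordinates. The D segment with the most counts and 3 of the 4 J segments, as annotated in GENCODE M21, at chr12:113430528-113430538, chr12:113429781-113429833, chr12:113429085-113429132 and chr12:113428514-113428567, follow 5′ to 3′, with the TGGGG of the conserved J motif in capitals.
Ighd4-1: ctaactgggac
Ighj1: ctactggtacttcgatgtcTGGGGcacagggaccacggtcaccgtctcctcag
Ighj3: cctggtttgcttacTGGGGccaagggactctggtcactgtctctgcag
Ighj4: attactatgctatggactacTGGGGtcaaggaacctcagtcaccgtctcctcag

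For V genes the last 100 bases of the annotated transcript are shown, where the segment ends and a D segment would be joined. Capitals mark the 9-base match to TANTNCTGT (N, any base), which ends in the codon of the conserved cysteine of the V region. The first 4 had the most counts of the V members in MPP4, at chr12:114764450-114764883, chr12:115861867-115862355, chr12:115802648-115803080 and chr12:115952538-115953005. The next 2 are V pseudogenes of the same family, at chr12:115888096-115888528 and chr12:115963817-115964250. The last 3 were abundant in MPP3 WT libraries, at chr12:114048241-114048812, chr12:113896408-113896946 and chr12:113625506-113625956.
Ighv1-23: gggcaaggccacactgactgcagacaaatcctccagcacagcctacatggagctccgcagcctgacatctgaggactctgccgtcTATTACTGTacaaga
Ighv1-77: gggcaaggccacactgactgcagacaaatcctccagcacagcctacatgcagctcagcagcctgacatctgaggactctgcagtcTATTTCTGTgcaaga
Ighv1-74: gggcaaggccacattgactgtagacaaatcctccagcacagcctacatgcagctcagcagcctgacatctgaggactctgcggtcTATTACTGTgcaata
Ighv1-82: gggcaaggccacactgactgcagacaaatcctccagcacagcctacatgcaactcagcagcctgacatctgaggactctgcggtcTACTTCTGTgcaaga
Ighv1-79 (pseudogene): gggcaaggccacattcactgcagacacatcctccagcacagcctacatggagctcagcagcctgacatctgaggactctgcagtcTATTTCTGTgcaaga
Ighv1-83 (pseudogene): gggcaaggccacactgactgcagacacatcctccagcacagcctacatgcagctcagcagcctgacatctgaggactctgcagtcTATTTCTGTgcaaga
Ighv11-2: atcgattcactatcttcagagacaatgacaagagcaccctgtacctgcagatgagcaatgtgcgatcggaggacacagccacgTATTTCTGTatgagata
Ighv7-1: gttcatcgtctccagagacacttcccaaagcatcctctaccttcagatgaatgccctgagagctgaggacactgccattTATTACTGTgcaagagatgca
Ighv5-6: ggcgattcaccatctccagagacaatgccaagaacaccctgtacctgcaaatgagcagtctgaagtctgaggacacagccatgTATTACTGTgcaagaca

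The motif, searched on both strands in the last 25 bases, was present in 101 of 115 annotated V genes (87.8%) and in 35 of 70 V pseudogenes (50.0%), and TGGGG in 3 of 4 J genes. Compared position by position over these 100 bases, Ighv1-77 was 95% identical to Ighv1-23 and to Ighv1-74, 97% to Ighv1-82, 96% to Ighv1-79 and 99% to Ighv1-83. The same count gave 27% for Ighv11-2, but no alignment was made and its motif lies farther from the end. That value therefore does not measure how far the 2 genes have diverged. Because V genes resemble each other, the transcripts were searched for 100-base stretches found in another gene. Of the 65 V members, 23 held at least some such stretches and 5 held them over more than 20% of their length (Ighv1-52, Ighv1-61, Ighv1-62-1, Ighv1-62-3 and Ighv1-72), so counts of those 5 are uncertain. Ighv11-2 shared 17.4% of its windows and Ighv1-77 2.3%, while Ighv1-23, Ighv1-74, Ighv1-82, Ighv7-1 and both pseudogenes shared none. Ighv1-5 and Ighv1-62-1 also overlap other annotated genes.

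Library depth ran from 24823708 to 48703193 counts, so that a floor of 3 counts corresponded to 0.0619 to 0.118 CPM (counts scaled to a common library total, as adjusted by edgeR's TMM method for differences in composition). Floors and intervals cover counting error only. KO was compared with WT in each population, MPP3 with MPP4 in each genotype, and the interaction of both was tested. EdgeR's quasi-likelihood test was run on the 11831 genes averaging more than 100 counts in some group, and a gene was called at a Benjamini-Hochberg FDR below 0.1. Each log2 fold change is followed by its SE. Of the members, 23 entered this test: 5 constant, 2 J, 1 D and 15 V genes. Entry through the group in which a gene is high favours a difference between groups, so the counts of called members are descriptions of the 23 and not of all 79. The contrasts share libraries with each other and their results are not independent.

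Constant genes of unswitched IgM and IgD were counted in both populations, and both were higher in MPP4. Ighm was counted 45909, 32099, 56867 and 48909 times in MPP4 WT, 38415, 42278, 34866 and 45291 times in MPP4 KO, 26556, 12059, 11030 and 7694 times in MPP3 WT, and 4971, 3946, 9297 and 6132 times in MPP3 KO. No MPP3 library reached the lowest MPP4 library, and while MPP4 varied by 1.19-fold between its highest and lowest library in CPM, MPP3 varied by 6.14-fold. Mean levels were 1120 ± 45.3 CPM in MPP4 WT, 1190 ± 87.8 in MPP4 KO, 434 ± 271 in the WT MPP3 libraries and 165 ± 55.3 in the KO ones (SD, n = 4). Of the 23 members tested, 15 were called between MPP3 and MPP4 in WT mice and 13 in KO mice, against 15.1% and 17.9% of all genes tested. In WT, 4 were higher and 11 lower in MPP3 (6.8% and 8.33% of all genes), and in KO all 13 were lower (9.18%). The 4 called higher (Ighg3, Ighv5-6, Ighv7-1 and Ighv9-3) passed the filter through MPP3 WT alone, so nothing is read from their count. Among all genes with at least 10 counts summed over the libraries, 23 and 25 of the 79 members were called, against 7.18% and 8.79% of genes. With the mouse as a block, 18 and 14 of the 23 were called (24.8% and 28.3% of all genes), and with both choices together 27 and 26 of the 79 (11.4% and 13.5%). Ighm was among those called, with a log2 fold change of -1.37 ± 0.32 for MPP3 over MPP4 in WT (FDR = 0.0075) and -2.85 ± 0.33 in KO (FDR = 1.46e-05). In cells sorted in bulk, fewer cells of a kind and less RNA per cell cannot be told apart.

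Ighd, which is transcribed through Ighm by long read-through and spliced, separated the populations more widely than Ighm. It was counted 396, 419, 701 and 514 times in MPP4 WT and 374, 491, 326 and 458 times in MPP4 KO, but 22, 16, 8 and 3 times in MPP3 WT and 25, 0, 33 and 12 times in MPP3 KO. The populations did not overlap, and the log2 fold changes for MPP3 over MPP4 were -5.06 ± 0.64 in WT (FDR = 3.89e-05) and -4.69 ± 0.62 in KO. Per 1000 Ighm counts there were 8.63 to 13.1 Ighd counts in MPP4 and 0 to 5.03 in MPP3, so the proportion of Ighd to Ighm also differed without overlap between the 8 libraries of each population. Within each mouse, the MPP4 library was higher than the MPP3 library of that mouse in 8 of 8 mice for both genes, by 1.36 to 8.64-fold for Ighm and by 13.8 to 159-fold for Ighd in the mice with a count in MPP3.

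Igha, Ighg2b and Ighg3, constant genes used after class switching, were high in a few MPP3 libraries and had at most 68 counts in an MPP4 library. Igha was counted 362, 0, 0 and 650 times in MPP3 WT and 0, 0, 909 and 0 times in MPP3 KO, against 0 to 55 in MPP4. Ighg2b was counted 15, 1237, 42 and 7 times in MPP3 WT, 222 times in MPP3 KO 3 and not at all in the other MPP3 KO libraries, against 0 to 68 in MPP4. Ighg3 reached 2187 counts in MPP3 WT 2 and 71 in MPP3 WT 4, was at 0 in the other 6 MPP3 libraries, and had at most 16 counts in MPP4. IgA was thus counted mainly in WT 1, WT 4 and KO 3, IgG2b in WT 2 and KO 3, and IgG3 in WT 2. IgA and IgG genes together made up 1.54, 22.1, 0.379 and 8.64% of the constant gene counts of the 4 MPP3 WT libraries, 11.1% in MPP3 KO 3, 0 in the other MPP3 KO libraries, and at most 0.272% in MPP4.

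Of these genes, Ighg3 alone was called, in WT (log2 fold change 6.93 ± 2.07 for MPP3 over MPP4, FDR = 0.0471). The call rested on 1 library with 2187 counts, without which the gene fell below the filter, and with the mouse as a block the log2 fold change was 3.54 (FDR = 0.263). It was also lost without MPP4 WT 2 (FDR = 0.114) and without MPP4 WT 3 (FDR = 0.123). Ighe, the IgE constant gene, went the other way: it was counted 40, 37, 37 and 35 times in MPP4 WT and 8, 39, 28 and 61 times in MPP4 KO, and in 1 of 8 MPP3 libraries, with 12 counts. It did not pass the filter of the test, but was called lower in MPP3 in both genotypes among genes with at least 10 counts summed. Ighg2c had at most 38 counts in any library, and Ighg1 was counted in 1 library only, with 13 counts in MPP4 WT 3.

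**Figure D1:**
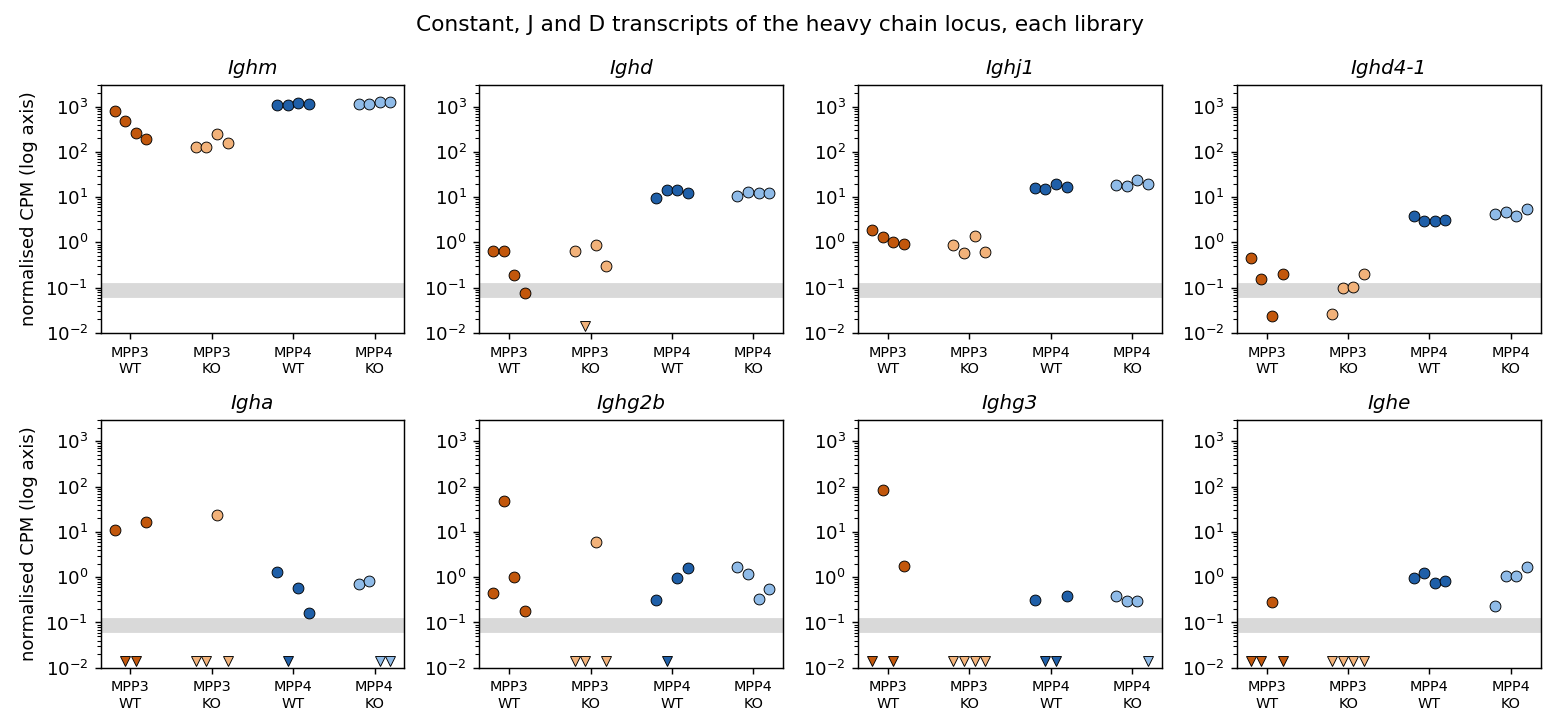
Levels of constant, J and D genes in each library, in CPM on a log axis, for the 4 groups of 4 libraries. Points are libraries, triangles at the lower edge are libraries with 0 counts and the grey band spans the floor of 3 counts (0.0619 to 0.118 CPM). Ighm, Ighd, Ighj1 and Ighd4-1 were higher in every MPP4 library than in any MPP3 library, while Igha was high in 3 MPP3 libraries, Ighg2b in 2 and Ighg3 in 1.

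J and D segments were transcribed in MPP4 and low in MPP3. Ighj1 was counted 664, 450, 928 and 697 times in MPP4 WT and 650, 654, 641 and 719 times in MPP4 KO, against 64, 33, 43 and 36 in WT and 33, 18, 53 and 25 in KO libraries of MPP3. Its log2 fold changes for MPP3 over MPP4 were -3.69 ± 0.27 in WT (FDR = 1.31e-07) and -4.50 ± 0.29 in KO (FDR = 1.84e-08). Ighd4-1, the D segment nearest to the J cluster, was counted 88 to 160 times in MPP4 WT and 106 to 197 times in MPP4 KO, but 1 to 15 times in MPP3 WT and 1 to 8 times in MPP3 KO. The groups did not overlap, and its log2 fold changes were -3.94 ± 0.53 in WT (FDR = 7.18e-05) and -5.35 ± 0.57 in KO. Ighj4, with 56 to 134 counts in MPP4 against 1 to 12 in MPP3, was also called lower in MPP3 in both genotypes, but fell below the filter without MPP4 WT 3 or WT 4. Ighj2 and Ighj3 did not pass the filter and had 29 to 120 counts in MPP4 and 0 to 25 in MPP3. Among genes with at least 10 counts summed, Ighj3 was called lower in MPP3 in both genotypes and Ighj2 in KO. Ighd1-1, the only other D member, was counted in MPP4 alone, at most 3 times in a library.

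Within the J genes, Ighj1 held 72.3 to 81.5% of J counts in the MPP4 libraries. Set against Ighm, there were 14 to 18.4 Ighj1 counts per 1000 Ighm counts in MPP4 and 2.41 to 6.64 in MPP3, again without overlap. Per kilobase of exon, Ighj1 stood at 313 CPM in MPP4 WT and 24.4 in MPP3 WT, and Ighd4-1 at 292 and 19.0, while Ighm stood at 596 and 230. J and D segments are shorter than a read, so these levels per kilobase depend on how reads that extend past the segment were assigned. Within each mouse, Ighj1 was 8.14 to 31.4-fold and Ighd4-1 8.36 to 160-fold higher in MPP4, in 8 of 8 mice.

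V genes in MPP4 formed a broad set that recurred from library to library. Their counts summed to 2180 to 3442 per library (58.4 to 98.9 CPM), and 26 to 36 V genes had at least 3 counts in a library. Of the 65 V members, 16 had at least 3 counts in all 8 MPP4 libraries, and 14 of these 16 belong to the Ighv1 family, the largest V family of the mouse. These 16, chosen by their counts in MPP4, held 89.0 to 94.8% of the V counts of each MPP4 library, and Ighv1-23 was the only V member with at least 3 counts in all 8 MPP3 libraries. The leading V gene of every MPP4 library was Ighv1-77 or Ighv1-23, with 18.5 to 24.9% of V counts, and the leading 3 together held 48.5 to 53.4%. V exons had similar lengths (349 to 480 bases, median 353), so shares of counts are close to shares per length.

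Ighv1-77 was counted 857, 513, 554 and 398 times in MPP4 WT and 385, 310, 437 and 456 times in MPP4 KO, against 12, 11, 10 and 16 in WT and 0, 4, 5 and 17 in KO libraries of MPP3. Its log2 fold changes for MPP3 over MPP4 were -5.35 ± 0.51 in WT (FDR = 2.1e-06) and -6.06 ± 0.54 in KO (FDR = 9.29e-07). Ighv1-23 was counted 487, 542, 823 and 564 times in MPP4 WT and 486, 440, 408 and 553 times in MPP4 KO, against 34, 49, 134 and 50 in WT and 42, 19, 44 and 60 in KO libraries of MPP3. For both genes the lowest MPP4 library was above the highest MPP3 library, and MPP4 levels spread by 2.44-fold for Ighv1-77 and 1.60-fold for Ighv1-23 between libraries. Ighv1-23 differed by -3.0 ± 0.32 in WT (FDR = 7.93e-06) and -3.66 ± 0.34 in KO (FDR = 1.28e-06). Ighv1-74 (289 to 447 counts in MPP4, 0 to 31 in MPP3) and Ighv1-82 (239 to 361 against 0 to 21) were called lower in MPP3 in both genotypes as well, as were Ighv1-75 and Ighv1-76. Ighv1-76 had no count in MPP3 KO, which was at least 46.1-fold lower than MPP4 KO at a floor of 3 counts in each library. Ighv1-80 (at least 15.0-fold lower by the same bound) and Ighv1-78 completed the calls in KO, and the Ighv1-78 call (FDR = 0.0919) was lost in 11 of the 16 fits that each left out 1 library. Without MPP3 WT 2, and in a fit of the 8 KO libraries alone, both genes fell below the filter and were not tested. Ighv1-80 was called in the other 15 fits that left out a library.

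Pseudogenes were counted beside the functional V genes in MPP4. The pseudogene Ighv1-79 had 121 to 345 counts and Ighv1-83 134 to 297 counts in the 8 MPP4 libraries, against 1 to 25 and 0 to 11 in MPP3. Both differed without overlap, with log2 fold changes of -3.97 ± 0.65 and -6.43 in WT and -4.24 and -5.47 in KO for MPP3 over MPP4, all called. Of the 19 pseudogenes compared, 7 had at least 3 counts in all 8 MPP4 libraries. For every 100 counts of V members there were 16.2 to 26.4 counts of V pseudogenes in MPP4 and 10.6 to 26.5 in MPP3 KO, but 0.184 to 4.18 in MPP3 WT. The pseudogene counts themselves overlapped between the MPP3 groups, at 10 to 71 in WT and 19 to 56 in KO.

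**Figure D2:**
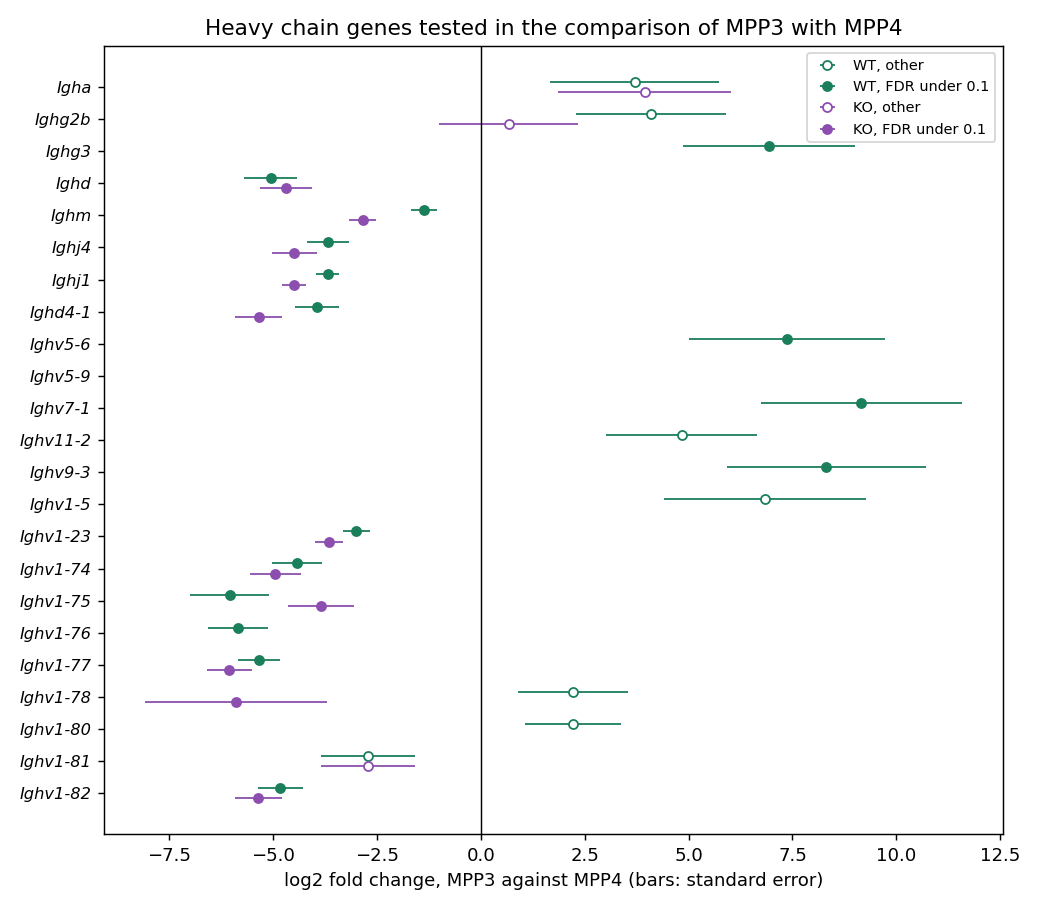
Log2 fold change of MPP3 over MPP4 for the 23 members tested, in WT (green) and KO (purple) mice, with the SE as bars and filled points where the FDR was under 0.1. Fits in which a group had no count are not drawn. Ighm, Ighd, Ighj1, Ighj4, Ighd4-1 and Ighv1 genes such as Ighv1-77 lie left of 0 in both genotypes, while Ighg3, Ighv7-1, Ighv9-3 and Ighv5-6 lie right of 0 in WT.

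V genes in MPP3 WT libraries formed few, high and mostly different sets. Summed V counts were 5422, 3559, 1699 and 1093 (163, 140, 40.9 and 27.6 CPM), of which the leading 3 V genes held 69.0 to 89.9%. Ighv11-2 led WT 1, WT 2 and WT 3 with 31.6, 33.9 and 76.9% of V counts, and Ighv5-6 led WT 4 with 36.5%. Ighv11-2 was counted 1711, 1205, 1307 and 0 times in the 4 MPP3 WT libraries, 145 times in MPP4 WT 2, and in none of the other 11 libraries. Its log2 fold change for MPP3 over MPP4 in WT was 4.83 ± 1.82 (FDR = 0.137), not called, and without MPP4 WT 2 it was called (FDR = 0.0324), at least 481-fold higher than the other MPP4 WT libraries, which were at 0. It was also called without MPP3 WT 4 (FDR = 0.0606). With the mouse as a block it was called at 6.49 ± 1.21 (FDR = 0.0047).

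Other V genes were abundant in a single MPP3 WT library. Ighv7-1 was counted 1188 times and Ighv1-5 1053 times in WT 1, Ighv1-78 821 times and Ighv5-9 430 times in WT 2, and Ighv5-6 399 times and Ighv5-9-1 309 times in WT 4. Ighv9-3 was counted 637 times in WT 1. Of these single-library genes, 3 were called higher in MPP3 WT, with 2 counts each over the 4 MPP4 WT libraries: Ighv7-1 (ratio of CPM 699, exact 95% interval 193 to 5780, FDR = 0.0249), Ighv9-3 (ratio 387, 107 to 3200, FDR = 0.051) and Ighv5-6 (ratio 234, 64.5 to 1940, FDR = 0.0772). In the other MPP3 WT libraries these 3 genes had 0 to 27 counts, so the ratio comes from 1 library in each case, and without that library the gene fell below the filter. All 3 entered the test through MPP3 WT alone, the group in which they were high, so their calls are a description. The calls of Ighv5-6 and Ighv9-3 were also lost without any single MPP4 WT library, and Ighv7-1 kept its call there. With the mouse as a block, Ighv5-9 (FDR = 0.00217) and Ighv1-5 (FDR = 0.0551) were called higher in MPP3 WT as well. Of the 65 V members, 21 had over 50% of all their counts in 1 library. The leading library was an MPP3 library for 18 of the 21, MPP3 WT for 15 and MPP3 KO 3 for 3. These shares were read from the counts themselves and are a description.

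MPP3 KO libraries had few V counts, at 147, 96, 526 and 124 (3.85, 3.19, 14 and 3.12 CPM). Ighv1-23 led KO 1, KO 2 and KO 4 with 28.6, 19.8 and 48.4% of V counts, as it led several MPP4 libraries. KO 3 stood apart, led by Ighv1-81 with 140 counts (26.6%), and also held 107 counts of Ighv3-6, 86 of Ighv6-6 and 54 of Ighv1-22. The 16 V genes common to all MPP4 libraries held 45.1 to 79.8% of V counts in MPP3 KO, 6.66 to 37.3% in MPP3 WT and 89.0 to 94.8% in MPP4. They were chosen by their counts in MPP4, so their high share and level there follow in part from the choice. In level, the 16 stood at 4.53 to 52.3 CPM in MPP3 WT (median 9.42), 2.12 to 6.29 in MPP3 KO (median 2.54) and 55.3 to 88.1 in MPP4. Without Ighv1-78, Ighv1-80 and Ighv1-81, each with most of its MPP3 WT counts in 1 library, the level fell from 10.9 to 2.8 CPM in WT 1, from 52.3 to 3.94 in WT 2 and from 7.94 to 3.44 in WT 4, but only from 4.53 to 4.41 in WT 3. In MPP3 KO 3 it fell from 6.29 to 2.52 CPM. The other 13, a set chosen after these values were seen, stood at 2.8 to 4.41 CPM in MPP3 WT, 1.86 to 2.52 in MPP3 KO and 47.7 to 75.1 in MPP4. Outside these 16, V levels were 19.7 to 152 CPM in MPP3 WT, 0.629 to 7.67 in MPP3 KO and 3.05 to 10.8 in MPP4.

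**Figure D3:**
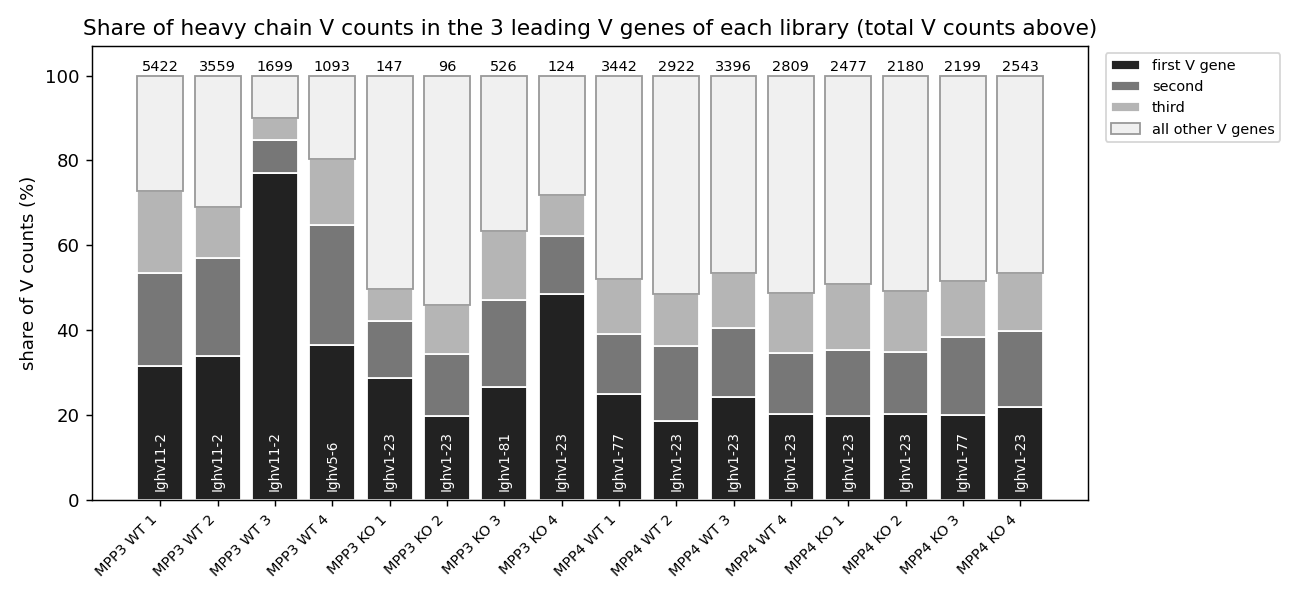
Share of V counts in percent held by the 3 leading V genes of each library, as stacked bars that sum to 100, with the leading gene named and the total V counts above. The leading 3 held 48.5 to 53.4% in MPP4, led by Ighv1-23 or Ighv1-77, and 69.0 to 89.9% in MPP3 WT, led by Ighv11-2 or Ighv5-6.

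The number of V genes was compared at equal depth because libraries held from 96 to 5422 V counts. Thinned to 96 V counts, libraries held 16 to 18.3 V genes in MPP4, 12 to 16 in MPP3 KO and 9.84 to 12.5 in MPP3 WT, so that MPP4 and MPP3 WT did not overlap. Over all V counts of a library, with no thinning, the effective number of V genes (the inverse of the summed squared shares) was 7.73 to 9.23 in MPP4, 3.65 to 9.27 in MPP3 KO and 1.66 to 4.92 in MPP3 WT. Set against the constant genes per kilobase of exon, V genes stood at 26.2 to 45.9% in MPP4, 10.6 to 27.5% in MPP3 KO and 67.5 to 116% in MPP3 WT. Every MPP3 WT library was above every other library, while MPP3 KO and MPP4 overlapped, since MPP3 KO 3 (27.5%) lay above MPP4 KO 2 (26.2%).

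Families were compared over the pooled counts of each population and then by group. Ighv1, with 40 members of 54 annotated, held 97.2% of V counts in MPP4 and 35.3% in MPP3. By library its share was 18.1 to 44.8% in MPP3 WT, 55.5 to 83.9% in MPP3 KO and 92.1 to 99.0% in MPP4, without overlap between these 3. Ighv11 held 33.3% in MPP3 and 0.66% in MPP4, and Ighv5, Ighv7 and Ighv9 held 9.3, 9.47 and 5.91% of MPP3 V counts. These counts came from MPP3 WT, since in MPP3 KO the 4 families had no counts other than 2 of Ighv7-1 in KO 3. The 16 V genes found in all MPP4 libraries lay 969.0 to 2577.3 kb from Ighm with a median of 2395.6 kb, where all 65 V members lay 202.8 to 2577.3 kb away with a median of 1491.9 kb. Ighv6-3, at 969.0 kb, and Ighv1-23, at 1341.7 kb, were among the nearer of the 16. The 21 V genes with most of their counts in 1 library lay 202.8 to 2446.0 kb away with a median of 839.9 kb. Ighv1-78 belongs to both sets.

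**Figure D4:**
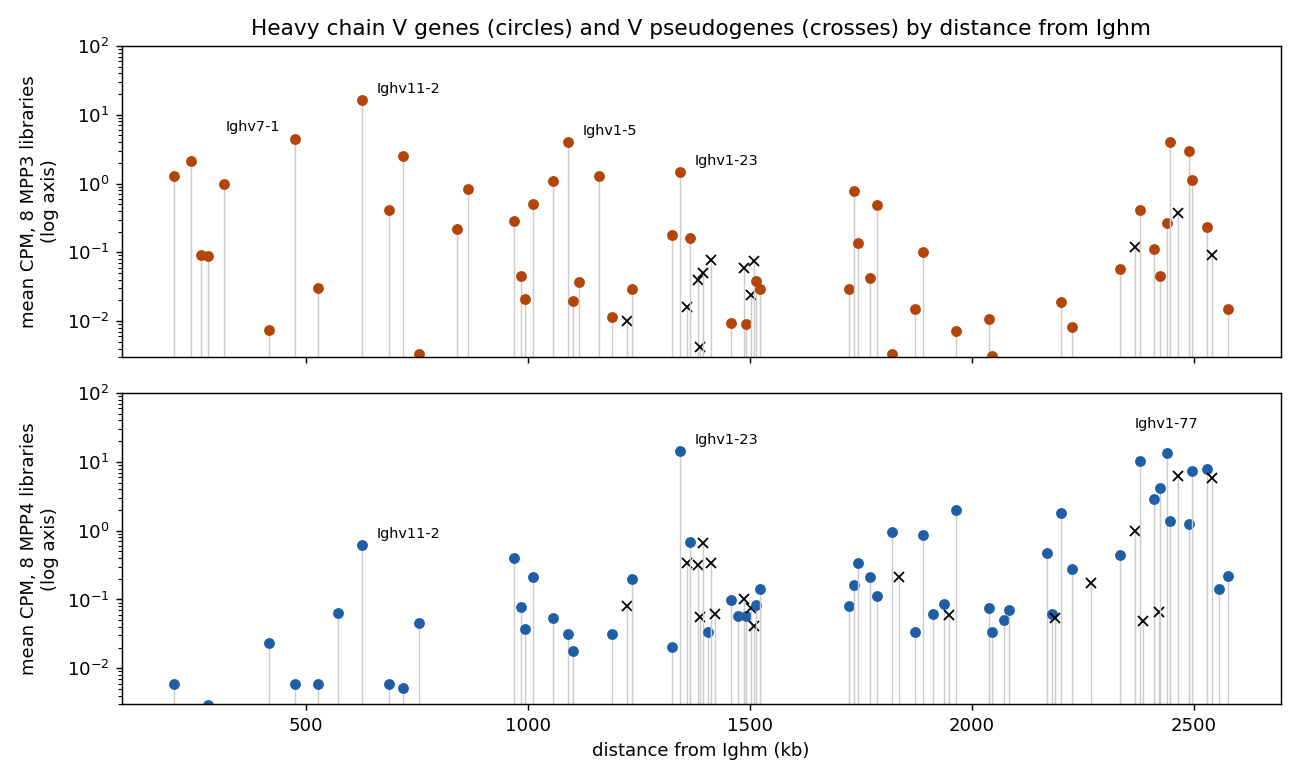
Mean CPM over the 8 MPP3 (upper) and 8 MPP4 (lower) libraries for V genes (circles) and V pseudogenes (crosses), on a log axis, against distance from Ighm in kilobases. In MPP4 the highest genes are Ighv1-23 at 1341.7 kb and a group from Ighv1-74 at 2379.9 kb to Ighv1-82 at 2529.8 kb, while the highest of MPP3 are Ighv11-2 at 625.5 kb, which had no counts in MPP3 KO, and Ighv7-1 at 473.7 kb, with 1188 of its 1198 MPP3 WT counts in WT 1.

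Light chain V genes were high in the 4 MPP3 WT libraries and MPP3 KO 3, and near 0 in most others. They were counted 11650, 8182, 2953 and 2447 times in MPP3 WT, 2505 times in MPP3 KO 3, and 8, 0 and 5 times in MPP3 KO 1, KO 2 and KO 4. In MPP4 they were counted 387 times in WT 2 and 4 to 91 times in the other 7 libraries. Igkc, the kappa constant gene, was at 0 counts in MPP3 KO 1, KO 2 and KO 4, in which Ighm was counted 4971, 3946 and 6132 times. It was likewise at 0 in 3 of 4 MPP4 KO libraries, in which Ighm was counted 38415, 42278 and 45291 times. Iglc1, a lambda constant gene, was at 0 counts in the same 6 libraries.

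The heavy and light V genes that led a library could be set side by side. Igkv14-126 led the light chain V counts of MPP3 WT 1 (2678 counts) and WT 3 (2520 counts, 85.3%), both led by Ighv11-2 among heavy chains. The pairing of Ighv11-2 with Igkv14-126 is known from B-1 cells that bind phosphatidylcholine. MPP3 WT 2, in which Ighv11-2 also led, was led by Igkv8-19 (2905 counts), MPP3 WT 4 by Igkv8-34 (849 counts) and MPP3 KO 3 by Igkv6-32 (697 counts). MPP4 WT 2, the MPP4 library with 145 Ighv11-2 counts, had 329 counts of Igkv14-126 (85% of its light chain V counts), 514 of Igkc and 214 of Jchain, the last against 8 to 85 in the other 7 MPP4 libraries. Counts from whole cell pools do not show which heavy and light chains came from the same cell.

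**Figure D5:**
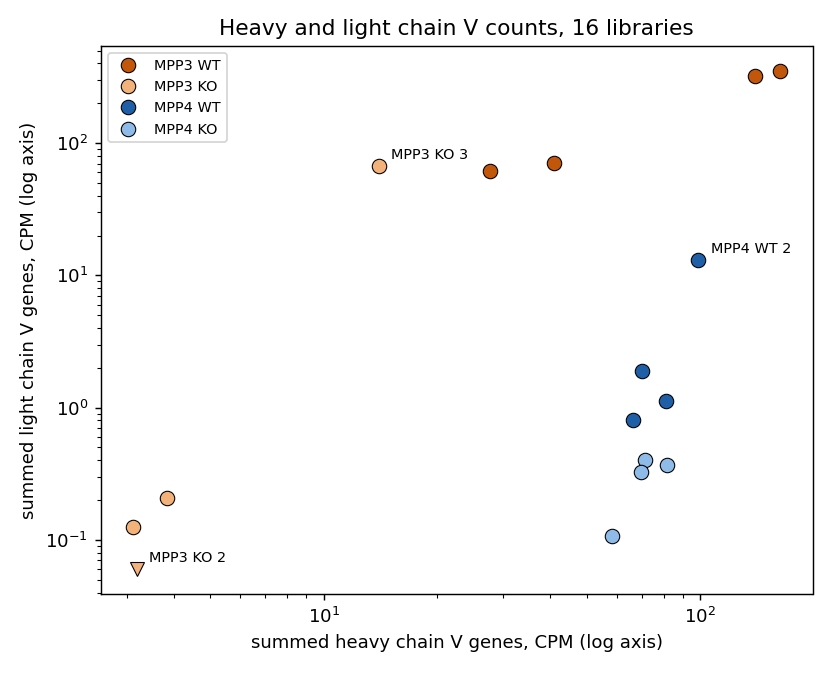
Summed light chain V level against summed heavy chain V level in each library, in CPM on log axes, coloured by group; MPP3 KO 2, with 0 light chain V counts, is drawn as a triangle at the lower edge. The 4 MPP3 WT libraries and MPP3 KO 3 have 61.9 to 351 CPM of light chain V, while MPP4 libraries with 58.4 to 98.9 CPM of heavy chain V have 0.107 to 13.1 CPM of light chain V.

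Between genotypes, none of the 23 members was called in MPP3 or in MPP4, against 0.0676% and 0.0169% of all genes tested. In MPP3, 12 of 23 had an unadjusted p under 0.05, against 1242 of 11831 genes, and DESeq2 called 4 (Ighm, Ighv1-76, Ighv1-80 and Ighv11-2; 1.82% of all genes), whereas in MPP4 0 had an unadjusted p under 0.05, against 1519 of 11831 genes, and DESeq2 called 1, Ighv11-2 (2.92% of all genes). Of the 23, 10 passed the filter through MPP3 WT alone, the group in which they were high, and 9 of the 12 in MPP3 were among these, so nothing is read from that count. Among genes with at least 10 counts summed over all libraries, 26 of 79 members had an unadjusted p under 0.05 in MPP3, against 1874 of 22281 genes. In MPP4, 1 member did, against 2088 genes. This filter does not use group means, but Ighv5-9-1 and Ighv3-5, among others, reached it through MPP3 WT alone. Nothing is read from these counts either. Ighm differed by -1.39 ± 0.32 in MPP3 (FDR = 0.147) and by 0.09 ± 0.31 in MPP4 (FDR = 0.935). The 2 MPP3 groups overlapped in Ighm level, since WT 4 (195 CPM) lay below KO 3 (247 CPM). The FDR for Ighm in MPP3 fell to 0.0445 without MPP3 WT 4 and to 0.0638 without MPP3 WT 3, and it rose to 0.372 without MPP3 WT 2. Without MPP3 KO 3, the MPP3 KO library with light chain counts, it was 0.122.

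Ighv11-2, Ighv1-80 and Ighg3 had no counts in MPP3 KO, and edgeR called none of the 3, while DESeq2 called Ighv11-2 and Ighv1-80. EdgeR called Ighv1-80 with sex as a term and without MPP3 WT 3 or WT 4, and Ighg3 without MPP3 WT 3. At a floor of 3 counts per library, MPP3 KO was at least 392-fold lower for Ighv11-2 (FDR = 0.199), at least 264-fold lower for Ighg3 (FDR = 0.175) and at least 71.1-fold lower for Ighv1-80 (FDR = 0.147). These bounds compare group means and leave out the spread between mice. The groups overlapped for all 3, since MPP3 WT 4 was also at 0 for Ighv11-2, WT 1 and WT 3 for Ighg3, and WT 3 for Ighv1-80. MPP3 WT 2 set much of this for Ighg3 and Ighv1-80, whose bounds were 7.19-fold and 31.8-fold without it, against 332-fold for Ighv11-2. Of the tested members counted in every MPP4 library, the log2 fold changes of KO over WT in MPP3 were, for Ighj1, -0.55 ± 0.28 (FDR = 0.519), for Ighd4-1 -0.89 ± 0.61 (FDR = 0.677), for Ighv1-23 -0.75 ± 0.33 (FDR = 0.436) and for Ighd 0.33 ± 0.65 (FDR = 0.918). Ighv1-75 stood at 1.99 ± 1.06 (FDR = 0.559), higher in KO, while Ighj4, Ighv1-74, Ighv1-77, Ighv1-81 and Ighv1-82 ran from -1.0 to -0.24, with none called. Over the alternative fits Ighv1-75 ran from 0.43 to 2.56. Ighv1-81 (-3.17 to 2.68) and Ighv1-82 (-1.09 to 0.04) changed sign, while Ighj4, Ighv1-74 and Ighv1-77 kept theirs. The V genes Ighv1-76, Ighv1-78 and Ighv1-80, also counted in every MPP4 library, had an FDR of 0.312, 0.164 and 0.147 there. Their mean levels were 0.0892, 8.14 and 5.92 CPM in the WT libraries of MPP3, against 0, 0.0133 and 0 in the KO ones, and 821 of the Ighv1-78 counts came from WT 2. In MPP4 the genotypes did not overlap for Ighd4-1, at 0.51 ± 0.44 for KO over WT (FDR = 0.65). The interaction, which asks whether the MPP3 to MPP4 difference differed between genotypes, called 0 of 23 members and 0% of all genes with edgeR. In it, 6 members had an unadjusted p under 0.05, against 270 of 11831 genes (3 of the 6 passed the filter through MPP3 WT alone), among them Ighm (-1.48 ± 0.44, FDR = 1.0), and DESeq2 called 1, Ighv1-80 (0.0678% of all genes).

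Marker lists were read beside these results, by calls for MPP3 over MPP4 in WT and then KO, without the mouse as a block. Of all genes tested, 6.8% were called higher and 8.33% lower in WT, and 8.71% higher and 9.18% lower in KO. Of 9 plasma cell genes tested, 4 were higher and 1 lower in WT (Jchain, Igkc, Fkbp11 and Sdf2l1 higher, Sdc1 lower) and 3 higher and 2 lower in KO. The summed level of all 15 ran from 581 to 1150 CPM in MPP3 WT, 525 to 928 in MPP3 KO, 509 to 759 in MPP4 WT and 464 to 835 in MPP4 KO. Jchain stood at 34.5 to 133 CPM in MPP3 WT, 20.6 in MPP3 KO 3 and 0 to 0.266 in the other MPP3 KO libraries. In MPP4 it stood at 0.165 to 7.24 CPM. Sdc1 went the other way, at 4.33 to 13.3 CPM in MPP3 and 50.1 to 142 in MPP4. The share of plasma cells in the libraries was not tested. Of 19 genes of lymphoid priming and V(D)J recombination, 11 were lower in MPP3 in WT and 12 in KO, with 1 higher in each. They included Rag1 (-3.60 ± 0.75 in WT), Rag2 (-3.28 ± 0.35) and Dntt (-4.78 ± 0.23), the recombinase genes and the terminal transferase. Light chain constant genes were higher for 1 of 2 in WT and 2 of 2 in KO, where both were at 0 counts in MPP3 KO 1, KO 2 and KO 4, so that the KO calls rest on KO 3. Of 11 class switching genes, 2 and 3 were lower, of 7 mature B genes 3 and 4, and of 5 early B genes 3 and 3, with none higher. Of 7 plasmacytoid dendritic cell genes 4 and 6 were lower, of 2 T cell genes 2 and 2, and of 7 mast cell and basophil genes 6 and 6 were higher, as were 2 and 2 of 5 neutrophil genes and 0 of 5 macrophage genes. Of 6 genes of the progenitor gate 2 were higher and 3 lower in WT, and 1 and 2 in KO. Between genotypes no list had a called gene except the gate list, with 1 lower in MPP4 KO (Kit). With the mouse as a block, under which 24.8% of all genes were called in WT and 28.3% in KO, no call of these lists was lost. Gained, all higher in MPP3, were Hmox1 in both genotypes and C1qb in KO (macrophage), S100a9 in both and Ngp in WT (neutrophil), Xbp1 and Creld2 in KO (plasma cell), Prss34 in KO (mast cell and basophil), Cd48 in KO (progenitor gate) and Spi1 in KO (class switching). Gained as lower in MPP3 were Tcf3 in both genotypes (class switching and lymphoid priming), Ebf1 in WT (class switching), Ly6d in WT (lymphoid priming and plasmacytoid), Bst2 in WT (plasmacytoid), Blk in WT (mature B) and Cd79b in KO (early and mature B).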

How the data were processed

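RNA of sorted MPP3 and MPP4 cells, pooled from femora, tibiae and ilia and depleted of lineage-positive cells, was sequenced as polyA-selected paired-end libraries. Per the labels and the study's methods, the deposited values are raw counts per gene, which the authors made with STAR 2.7.3a (alignment to mm10) and featureCounts 2.0.0; the annotation release and strand setting are not given in the sources used here. Without strand, reads of a gene and of an overlapping antisense gene cannot be told apart, and reads shared by similar V genes may have been split or dropped. The authors' test was DESeq2 1.28.1 (R 4.0.0, FDR under 0.1, mean above 100 counts in any condition).

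Here, counts were fitted with edgeR 4.0.16 (R 4.3.3, quasi-likelihood test, TMM) over all 16 libraries with 1 mean per group, restricted to genes averaging more than 100 counts in some group, with calls at an FDR below 0.1. SE is the log2 fold change over the root of F. Limma 3.58.1 (voom) and DESeq2 1.42.0 gave alternatives. The fit was also run on simulated data, with an outcome that is not given here and on which no result rests. Biotypes, coordinates and sequences came from GENCODE M21 (47224 of 47937 identifiers matched). A V gene was counted as present at 3 counts. Genes were named by rule: the constant and J members, D and V members past the filter, the leading V gene of each library and members called. The pseudogenes, light chain V genes, Ighd1-1, Ighv1-22, Ighv3-6, Ighv5-9-1 and Ighv6-6 were named after their values were seen, and from each marker list at most 4 or those called. Members and lists were chosen with earlier results of these data known. Libraries of the same genotype and number share age and sex in the labels and were taken as 1 mouse, and their deviations from the group means correlated at 0.274 to 0.528 in the 8 mice.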

Additional observations from a re-analysis of the deposited data

Results flagged for a closer look

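Libraries that stood apart within their group of 4 were picked by the gap between an extreme library and its nearest neighbour, as a share of the group's range. For normally distributed values, chance exceeds the cutoff in about 1 of 20 groups. Several genes and measures were examined in each group, so some picks would arise by chance. A group with counts in a single library is always picked, as were Igha and Ighg2b in MPP3 KO and Ighv11-2 in MPP4 WT. MPP3 WT 2 stood apart with 2187 counts of Ighg3 and 1237 of Ighg2b, where no other MPP3 WT library had more than 71 and 42. MPP3 WT 3 stood apart with 76.9% of its V counts in Ighv11-2, where the leading V gene of the other 3 held 31.6 to 36.5%. MPP3 KO 3 stood apart with 909 counts of Igha, 222 of Ighg2b and a summed V level of 14 CPM, where the other MPP3 KO libraries had 0 counts of either constant gene and 3.12 to 3.85 CPM of V genes. MPP4 WT 2 stood apart with 145 counts of Ighv11-2, where the other MPP4 WT libraries had 0. In MPP3 WT, summed V levels were 163 and 140 CPM in the females (WT 1 and WT 2) and 40.9 and 27.6 in males. In MPP3 KO they were 14 and 3.12 CPM in the females (KO 3 and KO 4) and 3.85 and 3.19 in males. In MPP3, Ighm stood at 799 and 475 CPM in WT females and 266 and 195 in WT males. In KO it stood at 247 and 154 CPM in females and 130 and 131 in males. Whether sex accounts for these differences was not tested, nor was the source of the transcripts that stood apart.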

How the results depend on the processing

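The number of members called between MPP3 and MPP4 stayed within 1.5-fold of 15 in WT and 13 in KO with RLE scaling, sex as a term, DESeq2, the 8 libraries of each contrast, and each library left out. Leaving out a library gave 11 to 17 in WT and 11 to 14 in KO. The 8 libraries of the KO contrast gave 10, with Ighv1-81 gained and Ighj4, Ighv1-75, Ighv1-78 and Ighv1-80 below the filter. Testing lower counts raised it: genes with at least 10 counts summed gave 23 and 25, edgeR's own expression filter 22 in KO, and the lower filter with the mouse as a replicate block, chosen after seeing the data, 27 and 26. Calls were also lost: Ighv5-6 in WT and Ighv1-78 in KO with at least 10 counts summed, and Ighg3 and Ighv9-3 in WT with block and lower filter. EdgeR's own filter lost Ighv1-78 in KO and left Ighv5-6, Ighv7-1 and Ighv9-3 untested in WT. The replicate block alone gained Ighv1-5, Ighv1-81, Ighv11-2 and Ighv5-9 and lost Ighg3 in WT, gained Ighv1-81 in KO, and changed no other member's call. DESeq2 gave no adjusted p for Ighg3, Ighv5-6, Ighv7-1 and Ighv9-3 in WT, which therefore count neither as kept nor as lost. Between genotypes in MPP3, where edgeR called 0, DESeq2 called 4, sex as a term 2 (Ighm and Ighv1-80), and leaving out a library 0 to 4 (4 without MPP3 WT 3, 3 without MPP3 WT 4). DESeq2 also called 1 in MPP4 and 1 in the interaction, where edgeR called 0.

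Some log2 fold changes that were not called changed sign. For Ighd in KO over WT of MPP3 the main value was 0.33, the value with the mouse as a random replicate block was -0.04, and leaving out a library gave -0.17 to 0.77, against -0.16 to 0.03 in MPP4 and -0.12 to 0.81 in the interaction. For Igha, leaving out a library gave -10.96 to 0.73 in KO over WT of MPP3, -1.12 to 0.55 in MPP4, -6.84 to 4.64 in MPP3 over MPP4 of KO and -10.54 to 1.15 in the interaction. MPP3 KO 3 set the lowest Igha values, since it alone of the MPP3 KO libraries held counts. With the replicate block Igha was at -0.30 in KO and -3.04 in the interaction, with block and lower filter at -0.57 and -3.27, and with sex as a term at -0.30 in the interaction. Ighg2b in MPP3 over MPP4 of KO was at -2.20 with the block, -2.34 with block and lower filter, -0.38 with sex, and -8.08 to 1.10 with a library left out, and in KO over WT of MPP4 at -0.10 to 1.04. Ighg3 in KO over WT of MPP4 ran from -0.02 to 1.13. MPP3 KO libraries held 96 to 526 V counts, so shares of V genes there rest on few counts.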
